A study of Homo sapiens with 28 samples.

Results

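The 9 genes described here encode enzymes that build mucin-type glycans, add sialic acid or supply the sugar precursors, and they are 9 of the 61815 human genes in the count table of an RNA-seq study of LNCaP cells. They were chosen by gene symbol, with earlier results of these data known. GCNT1 had been named before for its response to both inhibitors in all 4 inhibitor comparisons, and no record says which values led to the other 8. The effects of androgen and of inhibitor on these 9 genes are therefore given as description, with the size and error of each effect and no test. The androgen-by-inhibitor interactions and the differences between experiments, which are other contrasts of the same libraries, carry the test of the fit. They are built from the same effects, so their FDR values may not be free of how the members were chosen. For GCNT1 the interactions and differences built from its inhibitor effects are also given as description, since these effects led to its choice.

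LNCaP is an androgen-responsive human prostate cancer cell line. Before treatment all cells were held for 72 h in medium with charcoal-stripped serum (CSS), which is depleted of steroid hormones, so every group, controls included, started androgen-deprived. In the first experiment the cells were given DMSO vehicle, 1 µM Senexin B, 0.1 nM of the synthetic androgen R1881 or these agents combined, and each group has 3 libraries taken after 24 h. The second lasted 72 h, with vehicle, 500 nM SNX631, 1 nM R1881 or the combination, and 4 libraries in each group. The doses come from the labels, and the dose of Senexin B differs from that in the study's own text. Senexin B and SNX631 inhibit CDK8 and CDK19, the kinases of the Mediator kinase module, and the study describes them as chemically unrelated. Time, androgen dose, inhibitor and experiment all change together between the experiments and cannot be told apart. The labels do not say whether the replicates came from separate cultures, so p values measure the spread between these libraries, which may be technical.

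Mucin-type O-glycosylation starts in the Golgi when a polypeptide GalNAc transferase attaches N-acetylgalactosamine (GalNAc) to a serine or threonine. GALNT3 and GALNT7 are enzymes of this family. The first sugar can be extended to a core structure, which GCNT1 branches by adding N-acetylglucosamine (GlcNAc), or it can be capped at once by ST6GALNAC1, which adds sialic acid and makes the sialyl-Tn antigen. GCNT2 places the branches of the blood group I antigen on lactosamine chains, and ST6GAL1 caps galactose, mainly of N-glycans, with sialic acid. UAP1 makes UDP-GlcNAc and UDP-GalNAc, the donors where GlcNAc or GalNAc is added, and GNE starts the synthesis of sialic acid. CSGALNACT1 starts the chain of chondroitin sulfate, a glycosaminoglycan, and so is neither a mucin-type nor a sialyl enzyme.

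In the GENCODE 29 annotation of GRCh38, GCNT1 (ENSG00000187210) lies at chr9:76419850-76651203 on the plus strand, GCNT2 (ENSG00000111846) at chr6:10492223-10629368 on the plus strand and GALNT3 (ENSG00000115339) at chr2:165747591-165794682 on the minus strand. GALNT7 (ENSG00000109586) lies at chr4:173168753-173323967, ST6GAL1 (ENSG00000073849) at chr3:186930485-187078553 and UAP1 (ENSG00000117143) at chr1:162561506-162599842, all on the plus strand. ST6GALNAC1 (ENSG00000070526, chr17:76624761-76643838), GNE (ENSG00000159921, chr9:36214441-36277056) and CSGALNACT1 (ENSG00000147408) are on the minus strand. Exons of GCNT1 overlap exons of PRUNE2 on the other strand, and exons of GALNT7 overlap those of 2 antisense RNAs. The kit was directional per the labels, but the use of strand in counting is not stated, so reads of overlapping genes may not have been told apart.

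The 250 bases before the RefSeq start (GRCh38.p14) are shown for 4 members, since these carry the pattern of the data in which 2 rose with androgen, 1 fell with androgen and 1 rose with the inhibitors. Each is printed on the strand of its gene, with every GC box (GGGCGG on either strand) in capitals. The windows are chr1:162561620-162561869 for UAP1, chr4:173168561-173168810 for GALNT7, chr2:165794248-165794497 for GALNT3 and chr9:76500383-76500632 for GCNT1.
UAP1: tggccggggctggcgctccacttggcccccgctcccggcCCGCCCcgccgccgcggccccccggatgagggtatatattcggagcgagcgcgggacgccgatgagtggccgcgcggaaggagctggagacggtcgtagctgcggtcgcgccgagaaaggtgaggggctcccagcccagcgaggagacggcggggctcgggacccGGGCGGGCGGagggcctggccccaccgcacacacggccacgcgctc
GALNT7: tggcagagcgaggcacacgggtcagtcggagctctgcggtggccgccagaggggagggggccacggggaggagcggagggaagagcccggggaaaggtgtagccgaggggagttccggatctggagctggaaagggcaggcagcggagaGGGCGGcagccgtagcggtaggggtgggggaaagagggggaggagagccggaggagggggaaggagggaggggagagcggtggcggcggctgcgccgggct
GALNT3: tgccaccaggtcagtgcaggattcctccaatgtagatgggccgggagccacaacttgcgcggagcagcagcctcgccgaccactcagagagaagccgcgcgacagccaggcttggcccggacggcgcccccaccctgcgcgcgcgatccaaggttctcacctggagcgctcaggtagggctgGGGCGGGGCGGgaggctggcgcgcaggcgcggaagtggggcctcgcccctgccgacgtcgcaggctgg
GCNT1: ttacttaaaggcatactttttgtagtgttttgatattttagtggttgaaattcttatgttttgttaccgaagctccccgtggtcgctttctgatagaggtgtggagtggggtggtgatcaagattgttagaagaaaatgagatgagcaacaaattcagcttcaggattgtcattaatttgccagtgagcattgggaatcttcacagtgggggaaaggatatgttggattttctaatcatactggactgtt
Of the 9 members 7 were matched to a promoter used here. ST6GALNAC1 and CSGALNACT1 are not shown. A GC box was present in 5 of these 7 windows and in 42.6% of all 35116 windows of 250 bases. The windows of GCNT1 and of GCNT2, which is not printed, held none and were 38.8% and 48.4% G and C. Those of UAP1, GALNT7 and GALNT3 were 76.8%, 72.4% and 71.6% G and C. The letters TATAAA, searched on both strands, were in 0 of 7 member windows and in 10.7% of all windows. A missing match says only that these letters are not in this window. The windows of UAP1, GALNT3 and GCNT1 lie within the GENCODE 29 span of their gene, and that of GALNT7 reaches into it. Some annotated starts of these genes therefore lie before the RefSeq start. UAP1 and GCNT1 have 6 annotated transcript starts each, GALNT7 has 7 and GALNT3 has 9. Which of them LNCaP cells used was not tested.

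Total counts per library ranged from 9846595 to 33809419, where replicate 3 of vehicle at 24 h was the deepest and no other library passed 15248512. Levels are CPM (counts scaled to a common library size), normalised over all 28 libraries by TMM, a scaling that trims extreme genes. Of the luminal prostate markers, KRT8 had group means of 469 to 987 CPM and FOLH1 of 691 to 1487 CPM, while those of KLK3, an androgen-induced gene, ran from 0.966 to 137 CPM. Of the basal markers, KRT5 was at 0 in all group means and KRT14 and TP63 stayed at or under 0.357 CPM. Of the 3 fibroblast markers COL1A1 was at 8.23 to 29.6 CPM, while COL1A2 and DCN stayed at or under 0.102 CPM. The leukocyte markers PTPRC and CD3E and the endothelial marker PECAM1 stayed at or under 0.105 CPM, and VWF was at 0.618 to 4.02 CPM. VWF was called higher with R1881 in both experiments, at log2 changes of 1.32 ± 0.26 and 2.04 ± 0.25 (SE), and under the inhibitors, at 1.50 and 1.59 (highest edgeR FDR 0.000433). COL1A1 had log2 changes of -0.67 and -0.47 with R1881, -1.05 and -0.62 with inhibitor alone, and -0.85 and -0.85 with inhibitor in the presence of R1881 (highest edgeR FDR 5.76e-07), of which that with R1881 at 72 h stayed under the fold limit. Its log2 change with R1881 was -0.47 under Senexin B, not called, and -0.70 under SNX631, called. The part of either marker's source in the results was not tested. These are bulk libraries, so a change per cell and a change in the share of cells that express a gene cannot be told apart.

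Of the 9 members, 8 passed the filter on low counts and were tested in both experiments, and GNE was not, with 0 to 6 counts per library. Per kilobase of exon in GENCODE 29, the vehicle levels at 24 h were 25 CPM for UAP1, 20.3 for GALNT3, 6.58 for GCNT1, 3.31 for GALNT7, 2.66 for ST6GAL1 and 2.04 for GCNT2. On the same per-kilobase scale CSGALNACT1 was at 0.155, ST6GALNAC1 at 0.0471 and GNE at 0.00696. With R1881 at 24 h the level of ST6GALNAC1 per kilobase was 6.92, close to the 7.08 of GALNT7, while UAP1 reached 79.3. All values below are CPM without division by length.

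**Figure D1:**
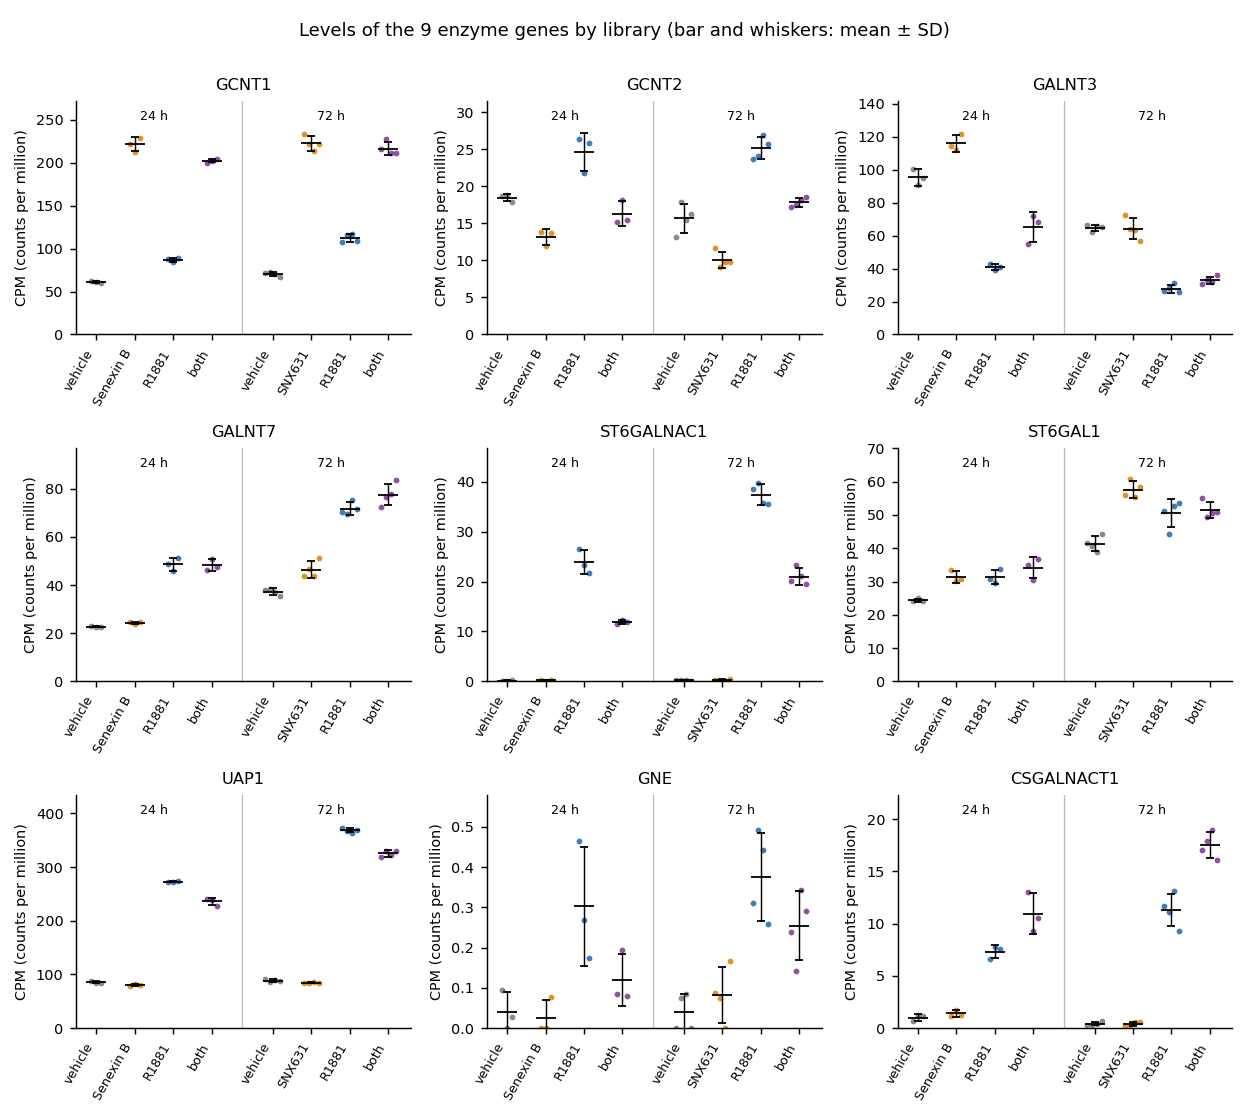
Levels of the 9 genes in CPM (vertical axis, from 0) in each of the 28 libraries, by treatment at 24 h (3 libraries per group) and 72 h (4 per group), where points are libraries and bars with whiskers are mean and SD. UAP1, ST6GALNAC1, GALNT7 and CSGALNACT1 were higher in the R1881 groups, GALNT3 was lower in them, and GCNT1 was above 200 CPM only in the 4 groups with an inhibitor.

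A gene was called when its edgeR false discovery rate (FDR) was under 0.01 and its fold change over 1.5. With R1881 alone at 24 h, 4 of the 8 tested members were called higher and 1 lower, where 9.81% of all 15948 tested genes were called higher and 9.19% lower. At 72 h, 6 were called higher and 1 lower, where 9.7% of 16074 genes were called higher and 10.1% lower. The median log2 change of the 8 was 0.81 at 24 h and 0.80 at 72 h, against -0.02 and -0.01 over all genes tested. Since the members were chosen with results known, nothing is read from these counts. The changes within the 9 were of very unequal size, from a log2 change of -1.22 for GALNT3 to one of 7.33 for ST6GALNAC1.

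UAP1, which makes the UDP-GlcNAc and UDP-GalNAc donors, was higher in every R1881 library than in any vehicle library. Its 24 h vehicle libraries were at 88.7, 84.9 and 84.7 CPM and its R1881 libraries at 271, 273 and 273 CPM. At 72 h the vehicle libraries were at 91.9, 85.2, 89.2 and 88.0 CPM and the R1881 libraries at 373, 368, 364 and 370 CPM. The groups were far apart in both experiments, and no library of one fell within the range of the other. The log2 change was 1.67 ± 0.035 at 24 h and 2.05 ± 0.028 at 72 h (SE). The androgen effect was larger in the 72 h experiment by 0.39 ± 0.043 on the log2 scale (SE, edgeR FDR 1.73e-09), a 1.31-fold difference that stayed under the fold limit of a call. The vehicle groups of the experiments differed by only 0.05 ± 0.033 (SE, edgeR FDR 0.281), and their libraries overlapped.

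ST6GALNAC1, the sialyl-Tn enzyme, was barely detected without androgen and became a clearly expressed gene with it. Its 24 h vehicle libraries held 0 to 12 counts (0, 0.143 and 0.345 CPM) and its R1881 libraries were at 26.6, 23.3 and 21.7 CPM. At 72 h, 2 to 4 counts per vehicle library (0.172, 0.226, 0.338 and 0.154 CPM) stood against 38.5, 39.7, 35.7 and 35.6 CPM with R1881. From the summed counts the ratio was 95.5 at 24 h (95% exact interval 56.6 to 176, from 795 and 14 counts) and 157 at 72 h (87.5 to 315, from 1670 and 11 counts). Such intervals take in the error of counting alone, as sequenced reads lack molecular tags and may be copies of 1 molecule. The fitted log2 changes were 6.61 ± 0.41 and 7.33 ± 0.44 (SE), and their difference of 0.74 ± 0.62 had an edgeR FDR of 0.50. Without the deep vehicle library of 24 h that difference was -0.69 (edgeR FDR 0.729), so its sign rested on 1 library.

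CSGALNACT1, the chondroitin chain initiator, followed with the next largest change. At 24 h it was at 0.664, 1.21 and 1.18 CPM with vehicle and at 6.59, 7.78 and 7.62 CPM with R1881, a log2 change of 2.74 ± 0.22 (SE). At 72 h it was at 0.344, 0.301, 0.422 and 0.692 CPM with vehicle and at 11.7, 11.1, 13.1 and 9.35 CPM with R1881, a log2 change of 4.64 ± 0.32 (SE). Its vehicle libraries held 7 to 41 counts at 24 h and 4 to 9 at 72 h. From the summed counts the ratio was 6.34 at 24 h (95% exact interval 4.81 to 8.47, from 245 and 65 counts). At 72 h it was 23.7 (15.5 to 38.2, from 505 and 22 counts). The vehicle and R1881 groups did not overlap at either time. This was the 1 member whose androgen effect was called as different between the experiments, by 1.91 ± 0.40 on the log2 scale (SE, edgeR FDR 0.000169), in a comparison that called 1.88% of 16672 genes. The call was lost without replicate 3 of the 24 h vehicle group, where the difference was 1.74 (edgeR FDR 0.0104). In the vehicle groups CSGALNACT1 was lower at 72 h, at 0.44 ± 0.18 CPM (SD, n = 4) against 1.02 ± 0.31 CPM (SD, n = 3), and these libraries overlapped.

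GALNT7 rose and GALNT3 fell, although both enzymes belong to the family that starts O-glycans. GALNT7, which prefers peptides that already carry GalNAc, was at 23.1, 22.7 and 22.5 CPM with vehicle and at 48.9, 45.8 and 51.1 CPM with R1881 at 24 h. At 72 h its vehicle libraries were at 37.97, 38.5, 37.0 and 35.4 CPM and its R1881 libraries at 70.2, 69.3, 75.4 and 71.7 CPM. The log2 changes were 1.10 ± 0.058 and 0.94 ± 0.051 (SE), and their difference of -0.16 ± 0.079 had an edgeR FDR of 0.21. The antisense RNA GALNT7-DT, whose exons overlap, stayed at group means of 1.60 to 2.92 CPM and was not called in the 10 comparisons within experiments.

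GALNT3, the 1 member that was lower with androgen, was at 100.4, 90.4 and 94.95 CPM with vehicle and at 42.8, 39.3 and 40.8 CPM with R1881 at 24 h. At 72 h it was at 66.2, 62.3, 66.0 and 65.0 CPM with vehicle and at 26.2, 28.2, 31.1 and 26.0 CPM with R1881. Each R1881 group lay wholly below its vehicle group. The log2 change was -1.22 ± 0.067 at 24 h and -1.22 ± 0.063 at 72 h (SE). The difference between them was -0.00088 ± 0.10 (SE, edgeR FDR 0.998), with a 95% interval of the fold ratio from 0.872 to 1.15.

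The branching enzymes GCNT1 and GCNT2 and the N-glycan sialyltransferase ST6GAL1 moved least with androgen. GCNT1 was at 61.8, 60.8 and 60.03 CPM with vehicle and at 87.5, 84.3 and 89.1 CPM with R1881 at 24 h, a log2 change of 0.52 ± 0.043 (SE) under the fold limit. At 72 h, vehicle libraries of 71.5, 73.1, 70.7 and 66.9 CPM stood against 107.7, 115.6, 116.6 and 109.0 CPM with R1881, a log2 change of 0.67 ± 0.040 (SE). GCNT2 changed by 0.43 ± 0.079 at 24 h, from 18.5 ± 0.52 to 24.6 ± 2.54 CPM (SD, n = 3), and by 0.67 ± 0.075 at 72 h, from 15.7 ± 1.98 to 25.1 ± 1.49 CPM (SD, n = 4). Both passed the fold limit at 72 h and missed it with library totals as the scaling (log2 changes of 0.56 and 0.57). ST6GAL1 changed by 0.37 ± 0.069 and 0.28 ± 0.054 (SE), with means of 24.4 ± 0.52 and 31.4 ± 2.12 CPM in the first experiment (SD, n = 3) and of 41.4 ± 2.21 and 50.5 ± 4.22 CPM in the second (SD, n = 4). None of these pairs of groups overlapped, although the changes were small.

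GNE, the first enzyme of sialic acid synthesis, was near the limit of detection in all groups. Its vehicle libraries held 0 or 1 count each, and its R1881 libraries 2 to 5 counts at 24 h and 3 to 6 at 72 h. The ratio of summed counts, R1881 to vehicle, was 8.41 at 24 h (95% exact interval 1.79 to 79, from 10 and 2 counts) and 8.79 at 72 h (2.09 to 78.4, from 17 and 2 counts). With both R1881 and inhibitor the libraries held 1 to 5 counts, so differences between inhibitor groups were not detectable at this depth.

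**Figure D2:**
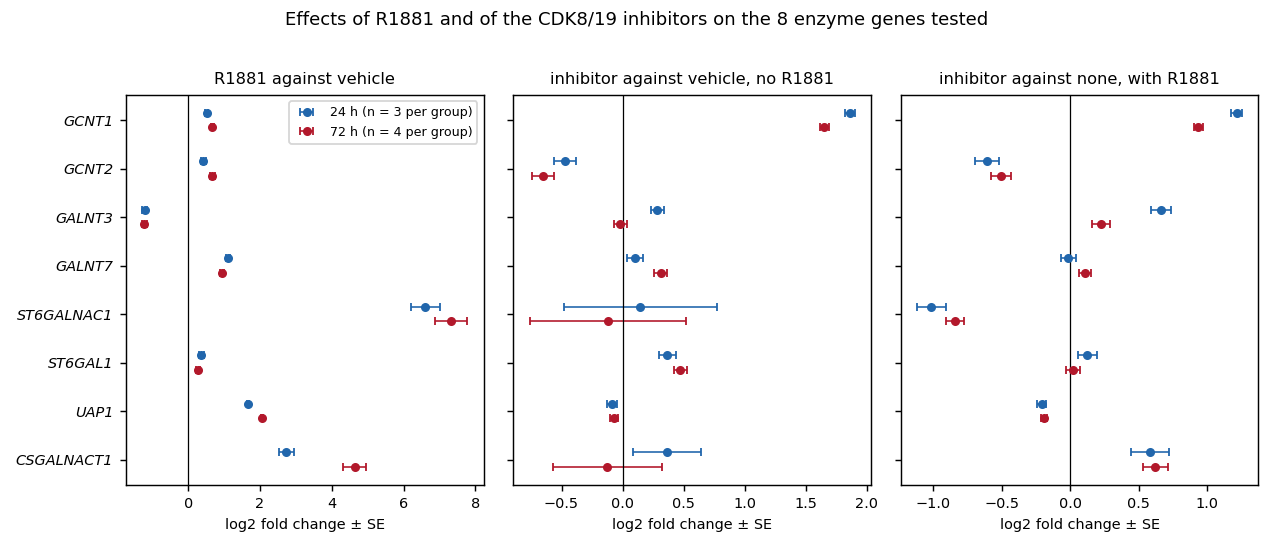
Log2 fold changes (horizontal axes, with SE) of the 8 tested members for R1881 against vehicle, for inhibitor against vehicle without R1881, and for inhibitor with R1881 against R1881 alone, at 24 h with Senexin B and at 72 h with SNX631. ST6GALNAC1 leads the androgen panel at 6.61 and 7.33 and GCNT1 the panel of inhibitor without R1881 at 1.86 and 1.65, and the panels have different scales.

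Next come the inhibitors without androgen, the comparisons that led to the choice of GCNT1. At 24 h, the 1 call among the 8 tested members was higher with Senexin B, where 2.02% of all tested genes were called higher and 1.77% lower. At 72 h, 1 was called higher with SNX631 and 1 lower, where 2.82% of genes were called higher and 1.94% lower. The called members were GCNT1, higher in both, and GCNT2, lower at 72 h, and nothing is read from these counts.

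GCNT1, the branching enzyme of mucin-type glycans, was at 221.9, 213 and 229 CPM with Senexin B against 60.03 to 61.8 CPM with vehicle, a log2 change of 1.86 ± 0.038 (SE) or 3.64-fold. With SNX631 it was at 233.8, 221.7, 213.2 and 221.3 CPM against 66.9 to 73.1 CPM, a log2 change of 1.65 ± 0.037 (SE) or 3.14-fold. The lowest inhibitor library was far above the highest vehicle library in each experiment. The effect without R1881 was smaller in the 72 h experiment by 0.21 ± 0.053 on the log2 scale (SE), in a comparison that called 0.474% of genes. By edgeR 0 members were called there, and DESeq2 called 0. An unadjusted edgeR p under 0.05 was seen for 3 members and for 2874 of all 16672 genes tested. GCNT2, the I-branching enzyme, went the other way. It was at 13.9, 12.0 and 13.7 CPM with Senexin B and at 11.7, 9.14, 9.74 and 9.72 CPM with SNX631, below every vehicle library of its experiment. Its log2 changes were -0.47 ± 0.088 at 24 h and -0.65 ± 0.090 at 72 h (SE), and the second passed the fold limit with all libraries and missed it without replicate 2 of the 72 h vehicle group (-0.58).

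ST6GAL1 was higher with inhibitor by 0.37 ± 0.067 and 0.47 ± 0.052 on the log2 scale (SE), at 31.4 ± 1.78 CPM with Senexin B (SD, n = 3) and 57.7 ± 2.49 CPM with SNX631 (SD, n = 4), under the fold limit in both. UAP1 differed little, by -0.09 ± 0.040 and -0.07 ± 0.032 (SE). GALNT3 changed by 0.29 ± 0.054 with Senexin B and by -0.02 ± 0.051 with SNX631 (SE), and GALNT7 by 0.10 ± 0.065 and 0.31 ± 0.054 (SE). ST6GALNAC1 and GNE stayed as sparse as with vehicle, at 0 to 5 and 0 to 2 counts per library. CSGALNACT1 was at 1.42 ± 0.30 CPM with Senexin B (SD, n = 3) and 0.40 ± 0.20 CPM with SNX631 (SD, n = 4), which overlapped its vehicle groups.

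In the presence of R1881, 2 members were called higher and 2 lower with Senexin B at 24 h, where 1.61% of genes were called higher and 1.5% lower. With SNX631 at 72 h, 2 were called higher and 1 lower, where 1.89% were called higher and 2.24% lower. GCNT1 was again higher, at 200.2, 202.1 and 203.7 CPM with R1881 and Senexin B and at 215.5, 227.3, 210.8 and 211.6 CPM with R1881 and SNX631. The log2 changes relative to R1881 alone were 1.21 ± 0.039 and 0.93 ± 0.034 (SE), beside 1.86 and 1.65 without R1881. The 72 h effect was smaller than the 24 h effect by 0.27 ± 0.053 (SE), under the fold limit, in a comparison that called 0.21% of genes. By edgeR 0 members were called there, and DESeq2 called 0. An unadjusted edgeR p under 0.05 was seen for 2 members and for 3109 of all 16672 genes tested.

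ST6GALNAC1 was lower with R1881 and inhibitor than with R1881 alone, at 11.4, 12.2 and 11.9 CPM with Senexin B and at 20.2, 23.2, 21.1 and 19.5 CPM with SNX631. These groups lay wholly below the 21.7 to 26.6 CPM and 35.6 to 39.7 CPM of R1881 alone. The log2 changes were -1.01 ± 0.10 and -0.84 ± 0.065 (SE). Even so, its ratio to the matching inhibitor group without R1881 was 42.9 at 24 h (95% exact interval 23.1 to 90.1) and 95.2 at 72 h (51.6 to 199) from the summed counts.

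GCNT2 was lower by 0.61 ± 0.089 with Senexin B and by 0.50 ± 0.071 with SNX631 on the log2 scale (SE), at 16.3 ± 1.66 CPM (SD, n = 3) and 17.8 ± 0.64 CPM (SD, n = 4). The 24 h call was close to the fold limit and was lost without any 1 of 4 libraries, with values of -0.56 to -0.58 without replicate 1 or 3 of R1881 or replicate 1 or 3 of R1881 with Senexin B. CSGALNACT1 was higher with inhibitor and R1881, at 13.1, 9.29 and 10.5 CPM with Senexin B and at 17.1, 17.9, 19.0 and 16.1 CPM with SNX631. Its log2 changes were 0.58 ± 0.14 and 0.62 ± 0.090 (SE). The first stayed under the fold limit with all libraries and passed it without replicate 2 or 3 of R1881 (0.62 and 0.60) or replicate 2 or 3 of R1881 with Senexin B (0.68 and 0.62), and with all libraries thinned to the smallest total (0.62). The second lay under it without replicate 4 of R1881 (0.54) or replicate 3 of R1881 with SNX631 (0.58).

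GALNT3 was higher by 0.66 ± 0.073 with Senexin B, at 54.9, 71.9 and 68.5 CPM against 39.3 to 42.8 CPM, and by 0.22 ± 0.068 with SNX631 (SE), where the groups overlapped. The difference between these effects was -0.43 ± 0.11 (SE, edgeR FDR 0.00988), under the fold limit. UAP1 was lower by a small and similar amount in both, with log2 changes of -0.21 ± 0.033 and -0.19 ± 0.023 (SE), and its groups did not overlap. GALNT7 and ST6GAL1 overlapped R1881 alone in both experiments, with log2 changes between -0.02 and 0.12.

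The combined groups show how much of each androgen effect was present under an inhibitor. Under Senexin B, 4 members were called higher with R1881 and 1 lower, where 9.97% of genes were called higher and 8.9% lower. Under SNX631, 5 were called higher and 1 lower, where 10.1% were called higher and 12% lower. The androgen effects of UAP1 under inhibitor were 1.54 ± 0.038 and 1.93 ± 0.028, and those of GALNT7 were 0.98 ± 0.062 and 0.73 ± 0.047 (SE, log2 scale). GALNT3 was lower with androgen by 0.84 ± 0.061 and 0.98 ± 0.057, and CSGALNACT1 was higher by 2.95 ± 0.22 and 5.39 ± 0.33 (SE, log2 scale). GCNT2 was higher by 0.29 ± 0.097 under Senexin B, not called, and by 0.82 ± 0.086 under SNX631, called (SE, log2 scale). Its interactions were -0.13 ± 0.13 at 24 h and 0.15 ± 0.11 at 72 h (SE, edgeR FDR 0.661 and 0.463).

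For GCNT1 the androgen effect was smaller under each inhibitor. Its log2 change with R1881 was 0.52 and 0.67 without inhibitor, and -0.13 ± 0.034 under Senexin B and -0.05 ± 0.030 under SNX631 (SE). The interaction was -0.65 ± 0.055 at 24 h and -0.72 ± 0.050 at 72 h (SE). It is the difference of the inhibitor effects with and without R1881, from which GCNT1 was chosen, so no test is given. No other member was called, in comparisons that called 0.577% and 1.19% of all genes. At 24 h the R1881 and Senexin B libraries lay wholly below those of Senexin B alone, and at 72 h the corresponding groups overlapped. The order of the group means was the same in both experiments, lowest with vehicle, then R1881, then both agents, and highest with inhibitor alone.

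For ST6GAL1 the 72 h interaction was -0.46 ± 0.073 (SE, edgeR FDR 1.9e-05) and stayed under the fold limit. Its log2 change with R1881 there was 0.28 without SNX631 and -0.18 ± 0.049 with it (SE). At 24 h its interaction was -0.24 ± 0.097 (SE, edgeR FDR 0.171). GALNT3 had interactions of 0.38 ± 0.091 (SE, edgeR FDR 0.0104) and 0.24 ± 0.085 (SE, edgeR FDR 0.0548), so neither passed. For ST6GALNAC1 the interactions were -1.16 ± 0.64 and -0.72 ± 0.64 (SE, edgeR FDR 0.39 and 0.556), with few counts in the groups without R1881. The interactions of CSGALNACT1 were 0.22 ± 0.31 and 0.74 ± 0.46 (SE, edgeR FDR 0.807 and 0.33).

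**Figure D3:**
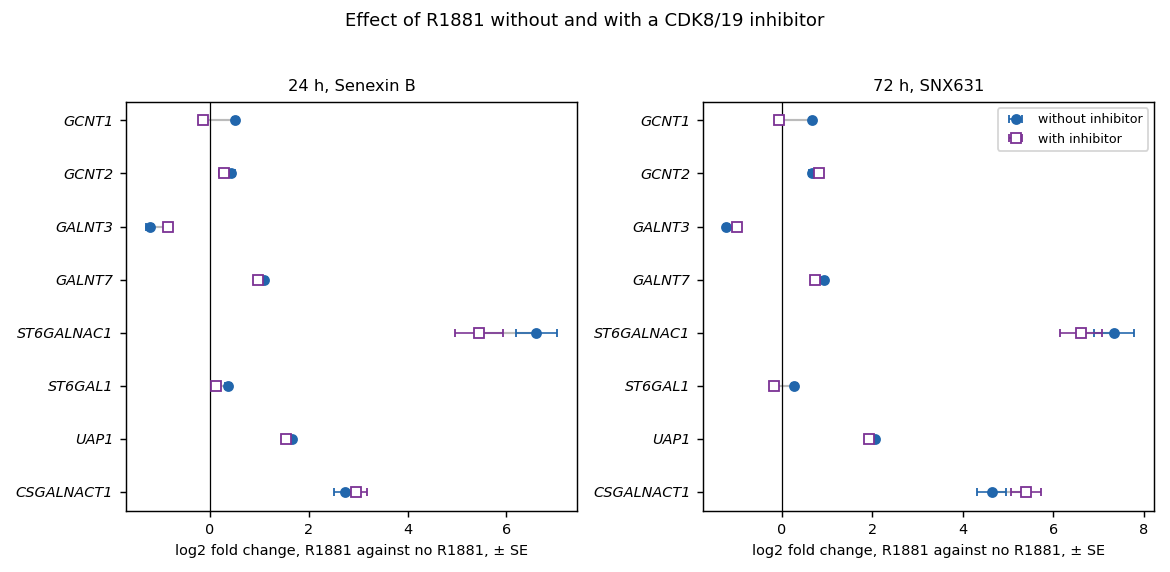
Log2 fold change of R1881 against no R1881 (horizontal axes, with SE) without inhibitor (filled circles) and with it (open squares), for Senexin B at 24 h and SNX631 at 72 h. The pair of GCNT1 runs from 0.52 to -0.13 and from 0.67 to -0.05, while the pairs of UAP1 lie at 1.67 and 1.54 and at 2.05 and 1.93.

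The genes with the group pattern most like that of GCNT1 were taken by a fixed rule, the Pearson r of mean log2 CPM over the 8 groups among 15673 genes. They were RFK, a riboflavin kinase, at 0.985, GBX2, a homeobox factor, at 0.980 and PABPC4, a poly(A)-binding protein, at 0.975. The 8 means share their libraries, so these values are descriptions. RFK is also the nearest protein-coding gene to GCNT1 that does not overlap it, 25332 bases away on the minus strand. Its group means were 62.7 ± 2.84 CPM with vehicle, 147.1 ± 8.75 with Senexin B, 85.9 ± 3.81 with R1881 and 167.5 ± 7.53 with both at 24 h (SD, n = 3). At 72 h they were 73.3 ± 3.07, 171.5 ± 9.38, 105.4 ± 4.14 and 185.9 ± 9.30 CPM in the same order of groups (SD, n = 4). Its log2 changes with inhibitor alone were 1.22 ± 0.047 and 1.22 ± 0.042 (SE), and unlike GCNT1 its highest means were those of both agents together.

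PRUNE2, whose exons overlap those of GCNT1 on the other strand, was far more abundant and followed another pattern. Its group means were 1731 CPM with vehicle, 2022 with Senexin B, 879 with R1881 and 1355 with both at 24 h, and 1443, 1653, 798 and 1069 CPM in the same order at 72 h. Its log2 change with R1881 was -0.98 ± 0.060 and -0.86 ± 0.042 (SE, edgeR FDR 2.1e-15 and 2.93e-20), opposite in sign to GCNT1. With inhibitor alone it was 0.22 ± 0.059 and 0.19 ± 0.040 (SE, edgeR FDR 0.00339 and 0.000212), where GCNT1 changed by 1.86 and 1.65. The deposited values of GCNT1 were whole numbers in all 28 libraries, and those of PRUNE2 held a fraction in 14 of 28. The part of PRUNE2 reads in the GCNT1 counts was not tested.

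**Figure D4:**
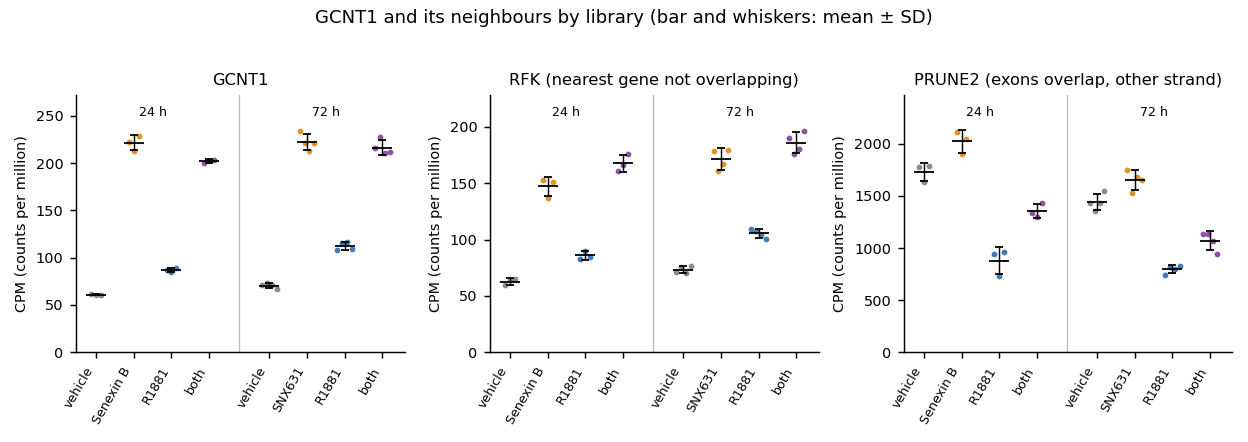
Levels in CPM (vertical axes, from 0) of GCNT1, of RFK and of PRUNE2 in each of the 28 libraries by treatment, where points are libraries and bars with whiskers are mean and SD. GCNT1 and RFK are highest in the groups with an inhibitor, and PRUNE2 is lowest in the R1881 groups at 879 and 798 CPM.

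The vehicle groups of the experiments differed in the levels of some members, in a comparison that called 5.97% of genes. GALNT7 was higher in the 72 h vehicle group by 0.72 ± 0.060 (SE, edgeR FDR 7.4e-14) and ST6GAL1 by 0.77 ± 0.063 (SE, edgeR FDR 3.31e-14), and both were called. CSGALNACT1 was lower by 1.29 ± 0.38 (SE, edgeR FDR 0.00227), and this call was lost without replicate 3 of the 24 h vehicle group (-1.12, edgeR FDR 0.0464) or replicate 2 of the 72 h group (-1.13, edgeR FDR 0.0136). GALNT3 was lower by 0.55 ± 0.056 (SE, edgeR FDR 2.55e-11), under the fold limit.

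The other genes of these pathways were taken from lists written with earlier results known, and none of the lists includes a member. Apart from fixed partners or relatives of members, the genes named were picked because they were called in these data. An FDR under 0.01 was therefore given by that choice, and the FDR values of such genes are description and no test. Among 18 further polypeptide GalNAc transferases, 8 were tested at 24 h, of which 1 was called higher with R1881 and 2 lower, and 9 at 72 h, of which 2 were higher and 2 lower. GALNT2, a broadly acting starter enzyme, rose from 217 to 406 CPM and from 185 to 346 CPM, by a log2 value of 0.90 ± 0.034 at 24 h and 0.90 ± 0.027 at 72 h (SE, edgeR FDR 8.03e-21 and 7.76e-27). GALNT10, which like GALNT7 prefers glycosylated peptides, fell by 1.24 ± 0.040 and 0.93 ± 0.046 (SE, edgeR FDR 5.2e-23 and 4.55e-20). The shares of all genes were 9.81% (higher) and 9.19% (lower) in the 24 h experiment and 9.7% and 10.1% in the other. The list's median log2 change was -0.25 at 24 h and -0.10 at 72 h.

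Among 18 core and I-branch enzymes 10 were tested in each experiment, and B4GALT1, a galactosyltransferase of lactosamine chains, was the 1 called in both, higher by a log2 value of 0.79 ± 0.039 at 24 h and 0.80 ± 0.032 at 72 h (SE, edgeR FDR 9.9e-18 and 3.73e-23). C1GALT1, which makes the core that GCNT1 branches, was at 17.4 CPM with vehicle and 13.7 CPM with R1881 at 24 h and at 19.9 and 14.8 CPM at 72 h, and its log2 change was -0.36 ± 0.092 at 24 h and -0.44 ± 0.078 at 72 h (SE, edgeR FDR 0.00115 and 6.84e-06) under the fold limit. GCNT3, the mucin-type relative of GCNT1, stayed at or under 0.163 CPM in all groups and was not tested. At 72 h B3GNT4, named after its values were seen, was called lower.

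Of 18 listed sialyltransferases outside the members, 11 were tested at 24 h with 1 called higher and 5 lower (median log2 change -0.56), and 9 at 72 h, where the 5 calls were all lower (median -0.93). Over all genes 9.19% were called lower at 24 h and 10.1% at 72 h, and the list was written with results known, so nothing is read from its counts. ST8SIA4, a polysialyltransferase, fell by 2.44 ± 0.59 and 3.03 ± 0.38 (SE, edgeR FDR 4.47e-05 and 1.59e-11). ST6GALNAC4, which works on already sialylated core structures, fell from 7.70 to 2.37 CPM and from 9.23 to 2.69 CPM (edgeR FDR 3.96e-11 and 2.03e-15). ST6GALNAC5, a brain-type enzyme of glycolipids, fell by 1.75 ± 0.45 and 1.67 ± 0.40 (SE, edgeR FDR 0.00032 and 0.00014) at levels of at most 1.64 CPM. The remaining 2 called lower in both, named here after their values were seen, were ST3GAL1, which competes with GCNT1 for the same core, from 1049 to 547 CPM and from 1016 to 535 CPM, and ST3GAL5, which makes the ganglioside GM3, from 21.6 to 8.32 CPM and from 18.2 to 7.604 CPM. ST6GALNAC2, the closest relative of ST6GALNAC1, was at 0.407 to 1.09 CPM, was tested at 24 h only and was not called there (edgeR FDR 0.147), and ST6GAL2 stayed at or under 0.0356 CPM.

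Most of the enzymes that supply sugars were not called with androgen. All 15 listed were tested, with 3 calls at 24 h, all higher, and 5 higher and 1 lower at 72 h. The gene called lower was RENBP, a renin-binding GlcNAc epimerase, which was named after its values were seen. Among all tested genes, the share called higher was 9.81% in the first experiment and 9.7% in the second. The share called lower was 9.19% in the first and 10.1% in the second. As this list was also written with results known, no direction is read from its counts. NANS, the sialic acid synthase that acts after GNE, rose by 0.63 ± 0.051 and 0.77 ± 0.042 (SE, edgeR FDR 1.94e-12 and 7.19e-19). GNPNAT1, which acts before UAP1, rose by 0.73 ± 0.046 at 24 h and 0.59 ± 0.040 at 72 h (SE, edgeR FDR 5.72e-15 and 8.02e-16). CMAS, which activates sialic acid, was called at 72 h only, at 0.60 ± 0.046, against 0.48 ± 0.042 at 24 h (SE, edgeR FDR 1.89e-14 and 1.38e-11). GFPT1, the first enzyme of the hexosamine pathway, changed by -0.01 ± 0.040 and 0.23 ± 0.031 (SE, edgeR FDR 0.846 and 3.22e-08) and was not called. UAP1L1, the relative of UAP1, did not follow it with androgen (-0.06 ± 0.065 and -0.01 ± 0.058, edgeR FDR 0.475 and 0.847) and was called higher with Senexin B, by 0.78 ± 0.057 without R1881 and 1.08 ± 0.063 with it (SE, edgeR FDR 1.73e-12 and 6.57e-15).

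Of 21 further chondroitin enzymes 17 were tested in each experiment, with 1 called higher and 2 lower in both. CHST11, a chondroitin sulfotransferase, rose by 1.21 ± 0.14 and 0.87 ± 0.10, and DSEL, an epimerase of dermatan sulfate, fell by 0.95 ± 0.049 and 1.07 ± 0.031 (SE, highest edgeR FDR of the 4 values 9.08e-09). CHST15, another sulfotransferase, fell by 1.14 ± 0.18 and 0.65 ± 0.17 (SE, edgeR FDR 1.09e-06 and 0.00112). CSGALNACT2, the relative of CSGALNACT1, was at 19.2 CPM with vehicle and 28.1 CPM with R1881 at 24 h and at 22.0 and 32.1 CPM at 72 h, and its log2 change was 0.52 ± 0.072 at 24 h and 0.54 ± 0.061 at 72 h (SE, edgeR FDR 2.21e-07 and 1.03e-09) under the fold limit. Of 18 mucins and mucin-like proteins only 4 were tested at 24 h and 3 at 72 h, and MUC20 rose in both by 0.85 ± 0.25 and 1.14 ± 0.24 (SE, edgeR FDR 0.00411 and 4.15e-05). MUC1 stayed at or under 0.744 CPM and was not tested. Of 4 sialidases 2 were tested at 24 h and 3 at 72 h, and NEU4 was called lower at 72 h. The same shares of all genes stand beside the mucin and sialidase counts, and nothing is read from the counts of these lists.

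**Figure D5:**
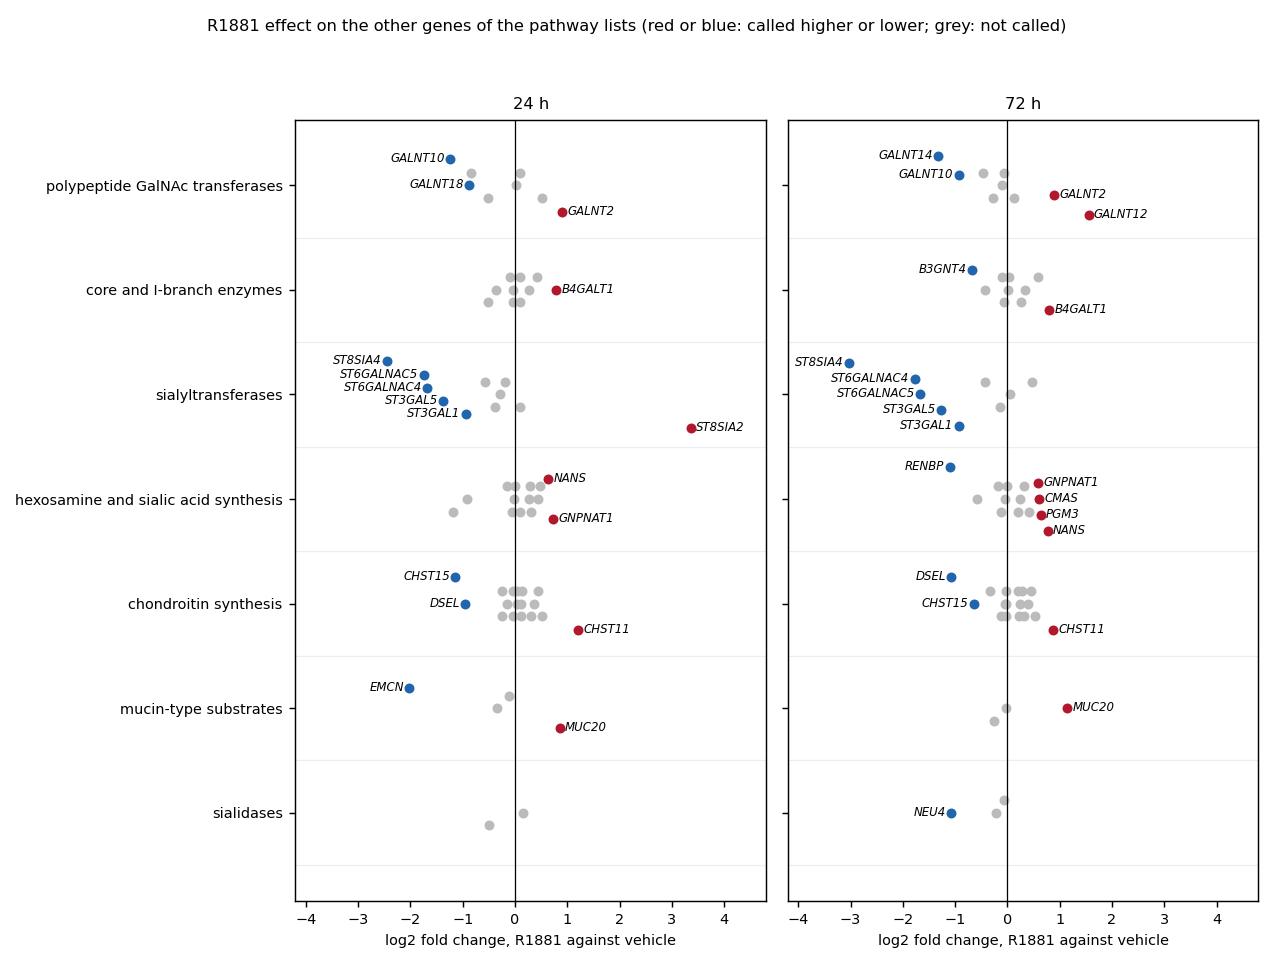
Log2 fold change of R1881 against vehicle (horizontal axes) at 24 h and 72 h for tested genes of 7 lists that hold no member, less 1 gene not reported here, where red and blue points are genes called higher and lower and grey points were not called. The sialyltransferases have 5 genes called lower at each time, and CHST11 is called higher at both, at 1.21 and 0.87.

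Without R1881, edgeR called no gene of these lists the same way with both inhibitors. GALNT10 and UAP1L1 were called higher with Senexin B, and with SNX631 ST8SIA4 was called higher and ST3GAL5 lower, 4 genes named after their values were seen. With R1881 present at 24 h, 4 of the 11 tested sialyltransferases were called higher with Senexin B, where 1.61% of all genes were called higher. They were ST3GAL1, ST6GALNAC4, ST8SIA2 and ST8SIA4, named after their values were seen, and nothing is read from their number. Over the 8 groups the means of ST6GALNAC1 and UAP1 followed each other most closely among the members (Pearson r 0.993 of mean log2 CPM, a description over groups that share libraries).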

How the data were processed

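LNCaP libraries of 8 groups (3 or 4 replicates each) were prepared with a directional kit per the labels. The submitters' processing notes name cutadapt 2.8, STAR 2.7.2b, featureCounts of Subread 2.0.3, FastQC and the builds GRCh38.p13 and GRCm39, without roles. The annotation release is not given in the sources used here. The deposited values are expected counts per gene made by the authors, of which 16.9% of those above 0 held a fraction, and they were rounded. The 2 non-human entries, with 0 counts, were left out. Total counts were 9846595 to 33809419 per library.

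Groups came from the labels. Each experiment was fitted with edgeR 4.0.16 (R 4.3.3, quasi-likelihood test, TMM scaling, filterByExpr with minimum counts of 10 and 15), and differences between experiments with a fit of all 28 libraries. The Benjamini-Hochberg adjustment ran over all tested genes. A call needed an FDR under 0.01 and a fold over 1.5. Biological coefficients of variation were 2.72% and 2.38%. SE is the Wald error of the fit. The scripts were tested on simulated data.

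The members and lists were chosen with earlier results of these data known. Named outside the members were fixed partners or relatives (UAP1L1, ST6GALNAC2, ST6GAL2, GCNT3, CSGALNACT2, NANS, CMAS, C1GALT1, GFPT1 and MUC1), up to 3 genes per list with the largest mean absolute change among genes with a call of 1 direction at 24 h and 72 h and 1 CPM or more, and the 3 genes most like GCNT1. Alternatives were DESeq2 1.42.0 (size factors, Wald test), library totals, other filters and limits, thinning, a replicate block, a joint fit and leaving out each library. Some genes are not reported here. Figures were drawn with matplotlib 3.10.9.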

Additional observations from a re-analysis of the deposited data

Results flagged for a closer look

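The interaction of androgen and inhibitor on GCNT1 was flagged in both experiments. It was -0.65 ± 0.055 on the log2 scale with Senexin B at 24 h and -0.719 ± 0.050 with SNX631 at 72 h (SE). GCNT1 was chosen for the inhibitor effects of which this is the difference, so the values are a description.

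The androgen effect on CSGALNACT1 differed between the experiments by 1.91 ± 0.40 on the log2 scale (SE, edgeR FDR 0.000169). Without replicate 3 of the 24 h vehicle group, the deepest library, it was 1.74 (edgeR FDR 0.0104) and was no longer called. Time, androgen dose and experiment cannot be told apart in this difference.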

How the results depend on the processing

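Of 2992 repeats of a member's result under other settings, 2908 kept direction and side of the threshold, 13 lost a call, 35 gained one and 36 changed sign. With an FDR under 0.05 and no fold limit, the members called rose from 5 to 8 for androgen at 24 h, from 1 to 4 for Senexin B and from 2 to 4 for SNX631 without R1881, and from 3 to 7 for SNX631 with R1881. Under that limit the interaction calls were 2 in place of 1 with Senexin B and 4 in place of 1 with SNX631. Between experiments they rose from 1 to 2 for androgen, from 0 to 2 for the inhibitor effect both without and with R1881, and from 3 to 6 for vehicle. Over all genes that limit raised every count by over 1.5 times, for androgen at 24 h from 3030 to 9307 of 15948 genes tested. It called 5717 of 15948 genes for Senexin B without R1881. Of 16074 genes it called 5864 for SNX631 without R1881 and 6873 with R1881. For the interactions it called 719 of 15948 genes with Senexin B and 2034 of 16074 with SNX631. Between experiments, of 16672 genes, it called 2209 for androgen, 769 and 1000 for inhibitor without and with R1881, and 7136 for vehicle. For the inhibitor difference between experiments, thinning gave 51 in place of 79 calls without R1881 and the DESeq2 Wald test 20 in place of 35 with R1881. Library totals only shifted the median log2 change of all genes by -0.102 for androgen at 72 h and by -0.108 under SNX631, and the share of calls that were higher from 48.9% to 38% and from 45.7% to 35%.

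Small or sparse effects changed sign, and the cause was not tested. With libraries thinned to the smallest total, ST6GALNAC1 was at -0.42 for Senexin B and 0.33 for SNX631 without R1881 and at 0.75 for their difference, the GCNT2 interaction at 24 h was 0.0038, and the GALNT3 androgen difference was 0.012 (0.020 with no filter). ST6GAL1 with SNX631 and R1881 was -0.015 both when thinned and with library totals only.

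Leaving out 1 library gave 1 to 2 called members for SNX631 without R1881 and 0 to 1 for the androgen difference. Values of members whose sign changed ranged, for ST6GALNAC1, from -0.12 to 1.56 with Senexin B and from -0.69 to 0.29 with SNX631 without R1881, from -0.69 to 1.00 for the androgen difference, from -1.68 to 0.16 for the inhibitor difference without R1881 and from -0.36 to 1.34 between vehicles. For SNX631 without R1881 they ranged from -0.080 to 0.032 for GALNT3 and from -0.34 to 0.19 for CSGALNACT1. With R1881 they ranged from -0.067 to 0.015 for GALNT7 with Senexin B and from -0.041 to 0.052 for ST6GAL1 with SNX631. Between experiments they ranged from -0.063 to 0.029 for the GALNT3 androgen effect, from -0.012 to 0.042 for UAP1 with inhibitor alone and from -0.045 to 0.19 for CSGALNACT1 with inhibitor and R1881.

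Same-numbered libraries did not deviate together (correlations from -0.0549 to 0.0678). The fit with the replicate block called 5 members for androgen at 24 h and 7 at 72 h, as without it, and changed no count of called members in the other comparisons. Depth limits ST6GALNAC1 and CSGALNACT1 without R1881, the latter most at 72 h, and GNE throughout.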
